A study of Mus musculus with 2 samples.

Results

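The genes described here are the fibroblast growth factors (FGFs), insulin-like growth factors (IGFs), vascular endothelial growth factors (VEGFs), platelet-derived growth factors (PDGFs) and neuregulins, with their receptors and IGF-binding proteins. They were chosen by a fixed set of array gene names from these families, a rule that uses no signal but was written with earlier results of these data known. Fgfr3, Pdgfra and Vegfd, which the array lists as Figf, belong to the families but lie outside these names. So do the VEGF receptors Kdr, Flt1 and Flt4, so no VEGF receptor is among the chosen genes. The rule gave 58 genes with 91 probes, of 22146 genes with a RefSeq symbol and 55681 probes on the array. It also caught 4 genes that only share the letters, the 3 Igf2bp mRNA-binding proteins and the antisense transcript Igf2as.

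RNA came from 1 culture kept in tetrodotoxin (TTX), a toxin that blocks voltage-gated sodium channels and so stops action potentials, and from 1 control culture. Both were dissociated hippocampal cultures of embryonic day 16.5 ICR mice, taken at 12 days in vitro. Both had been given 5 µM Ara-C, which kills dividing cells, and grew in 5.5% serum. The TTX culture had the toxin for its last 2 days, for which the design text gives 2 µM but the sample's label 2 mM, a conflict that the files do not settle. With 1 single-colour array a group there was no replicate, so no difference below has a replicate check or a p-value.

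Of the spots, 52.2% on the TTX array and 54.2% on the control array passed as well above background. The local background had a median of 60 on TTX and 58 on control, and no spot was saturated. All 6 general neuron markers were measured, 4 above 0 and 2 below with a median log2 difference, TTX minus control, of 0.18. Of 5 excitatory neuron markers 4 were below 0 and 1 above (median -0.54), and all 5 interneuron markers were below 0 (median -0.20). Of 9 astrocyte markers 8 were measured. Of 6 endothelial markers 3 were measured, and the defining ones Cdh5, Cldn5 and Tek were not. In cultures of mixed cell types, fewer cells of a type and less RNA per cell cannot be told apart.

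Growth factors of these families are secreted proteins that bind receptor tyrosine kinases on the same or neighbouring cells. The kinases feed the RAS to ERK and PI3K to AKT cascades, which control survival, division and differentiation. In the hippocampus, neurons and astrocytes release FGFs and IGFs, and neuregulins act on ErbB4 at excitatory synapses of interneurons. A subset of FGFs, the FGF homologous factors FGF11 to FGF14, is not secreted and binds the intracellular tail of voltage-gated sodium channels, the protein that TTX blocks.

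Probes behind some of the largest differences, without that of Fgf5, are shown first, since each value below is the brightness of a 60-base oligo. They are given 5′ to 3′ as in the array files, with mm9 coordinates. Egfr was read by probes 30.3 kb apart, on the plus strand at chr11:16813815-16813874 and chr11:16783556-16783615, and Fgf10 by 1 probe on the plus strand at chr13:119580365-119580424. Fgf13 was read by probes 188 kb apart, on the minus strand at chrX:56316415-56316474 and chrX:56504014-56504073. The Fgf18 probes, on the minus strand at chr11:33017440-33017499 and chr11:33017474-33017533, share the 26 bases in capitals, so they do not sample different parts of the transcript.
Egfr, brighter probe: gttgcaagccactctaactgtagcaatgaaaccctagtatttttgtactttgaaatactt
Egfr, dimmer probe: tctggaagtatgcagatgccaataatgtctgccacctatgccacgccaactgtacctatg
Fgf10: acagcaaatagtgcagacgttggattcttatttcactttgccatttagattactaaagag
Fgf13, brighter probe: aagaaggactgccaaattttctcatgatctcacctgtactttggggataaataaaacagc
Fgf13, dimmer probe: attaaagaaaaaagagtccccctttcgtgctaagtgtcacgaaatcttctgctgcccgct
Fgf18, brighter probe: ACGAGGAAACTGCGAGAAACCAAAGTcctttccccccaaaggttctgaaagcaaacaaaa
Fgf18, dimmer probe: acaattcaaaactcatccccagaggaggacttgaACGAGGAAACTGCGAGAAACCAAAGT

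Most growth factor transcripts differed little between the TTX and the control culture. Of the 58 genes, 39 were measured, meaning that a probe was well above background on both arrays, a share of 67.2% against 63.3% of all genes. Only the EGF receptor Egfr was at least 2-fold lower in TTX and only the ligand Fgf10 at least 2-fold higher, each 1 of 39 (2.56%). The same thresholds were passed by 3.40% (lower) and 2.08% (higher) of the 14016 genes measured, so both counts were near the background. Differences of less than 1.5-fold were found for 31 of the 39 (79.5%) and for 83.7% of all genes. The median log2 difference, TTX minus control, was -0.07 for the 39 genes and 0.01 for all genes, and the first of these changed sign with the scaling.

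**Figure D1:**
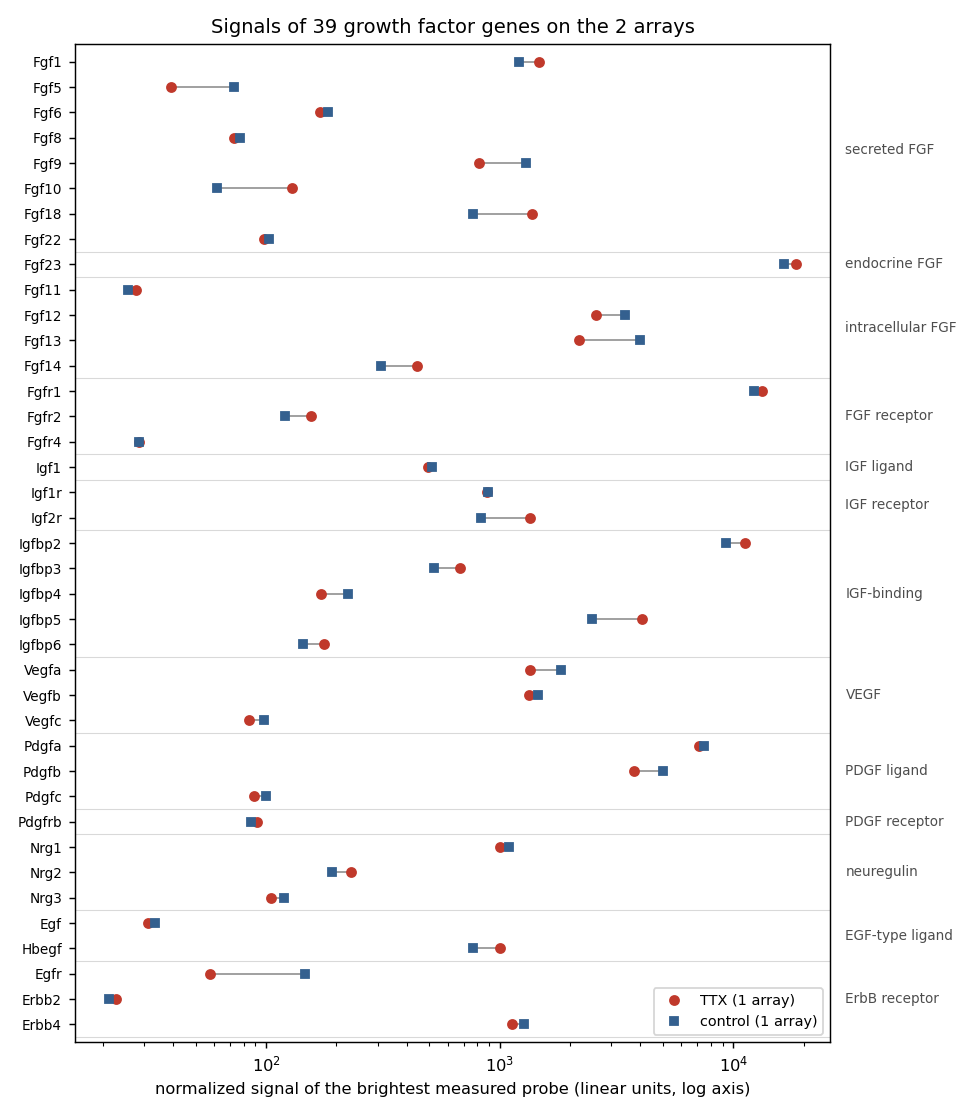
Normalized signal of the brightest measured probe of each of the 39 measured genes (linear units on a log axis), with circles for the TTX array, squares for the control array and a line joining them. The longest line is that of Egfr, with 57.6 in TTX and 146 in control, and signals of different genes come from different probes and are not comparable with each other.

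A looser rule of 1.5-fold took in 4 genes lower in TTX (10.3%, against 8.66% of all genes) and 4 higher (10.3%, against 7.62%). The lower ones were Egfr, Fgf5, Fgf13 and Fgf9, and the higher ones Fgf10, Fgf18, Igfbp5 and Igf2r. All 8 kept their direction under each of the 6 scalings tried, but not all stayed past 1.5-fold. With normexp background correction Fgf5 was at -0.46, and with spike-in scaling Igf2r was at 0.56 and Igfbp5 at 0.55. In all, 32 of the 39 genes kept 1 sign under these scalings, and the 7 that did not (Egf, Erbb2, Fgf8, Fgf22, Fgfr1, Fgfr4 and Igf1r) had differences within 0.12 of 0.

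**Figure D2:**
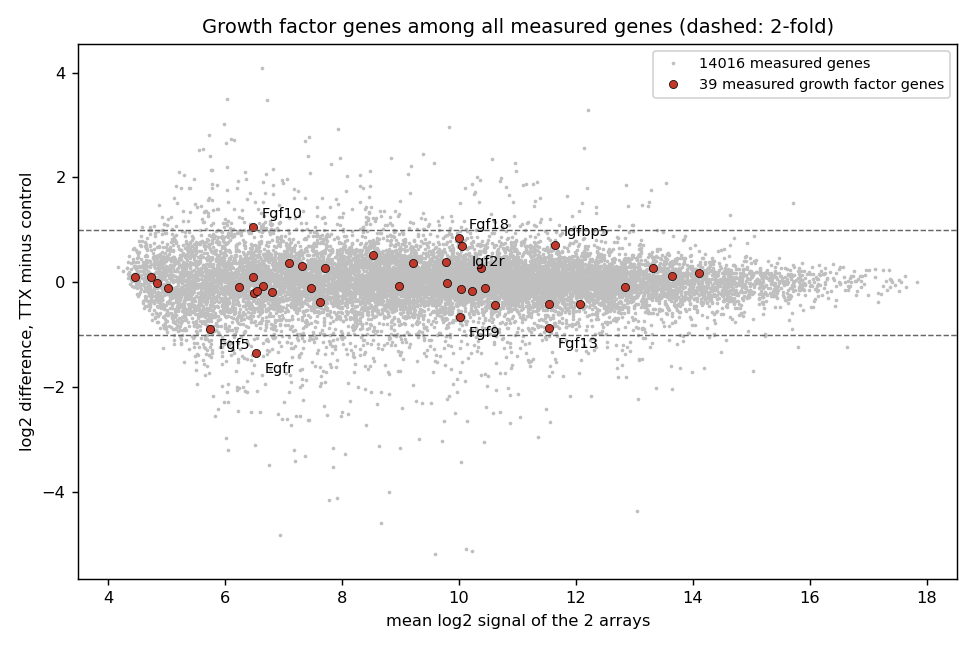
Log2 difference, TTX minus control, against the mean log2 signal of both arrays for the 14016 measured genes (grey) and the 39 measured growth factor genes (red), with dashed lines at 2-fold. Egfr at -1.34 and Fgf10 at 1.06 are the red points outside the lines, and all others lie inside.

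The secreted FGFs were divided in direction and held the widest differences among ligands. Of 15 such genes 8 were measured, 3 higher and 5 lower in TTX, with a median of -0.08. Fgf10, a ligand of the FGFR2b receptor known from limb and lung growth, had a signal of 129 in TTX and 61.7 in control (log2 difference 1.06, Feature Extraction error 0.23). Fgf18, known from bone and cartilage growth, had 1376 in TTX and 768 in control (0.84), and 0.61 at its overlapping probe.

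On the lower side, Fgf5, known as the factor that ends hair growth, had a signal of 39.0 in TTX and 72.5 in control (-0.90). Its probe was dim on both arrays. Fgf9, first described as a glia-activating factor and made by neurons, had 817 in TTX and 1300 in control (-0.67), well clear of background on both.

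The other measured ligands of this class differed by less than 0.3. Fgf1, the acidic FGF, had 1467 in TTX and 1212 in control (0.28). Fgf6, known from muscle, had 170 in TTX and 184 in control (-0.12), and its other probe was not well above background on either array. Fgf8, a patterning factor of the embryonic brain, had 72.7 in TTX and 77.5 in control (-0.09), and Fgf22, which organizes presynaptic terminals at excitatory synapses, had 97.9 in TTX and 102 in control (-0.07). Fgf8 and Fgf22 changed sign with the scaling and cannot be given a direction. The other probes of Fgf1, Fgf8 and Fgf22 were also not well above background on either array.

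Fgf23, the bone-derived hormone of phosphate balance, was the only measured gene of the 3 endocrine FGFs. Its brightest probe had signals of 18575 in TTX and 16509 in control (0.17). Its other probe, 0.531 kb away, was well above background on TTX alone, with 50.9 in TTX and 14.9 in control. Signals of different probes are not levels of the transcript, and no file tells which of the Fgf23 probes reads it better.

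The 4 FGF homologous factors were all measured and went in different directions. Fgf13, which also binds microtubules, had a signal of 2192 in TTX and 4003 in control (-0.87, error 0.20) at its brighter probe. At its dimmer probe, with 115 in TTX and 121 in control, the difference was only -0.08, so the probes disagreed by 0.79. Fgf12 had 2581 in TTX and 3455 in control (-0.42), and -0.31 at its other probe.

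Fgf14, the family member whose loss causes ataxia in mice, was higher, with 441 in TTX and 309 in control (0.51), and its other probes gave 0.42 and 0.07. Fgf11 lay near background, with 27.7 in TTX and 25.7 in control (0.11, error 0.38). Thus the channel-binding FGFs held 2 members below 0 and 2 above, with a median of -0.16.

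Of the 3 FGF receptors chosen, Fgfr2 kept 1 sign under all 6 scalings and Fgfr1 and Fgfr4 did not. Fgfr2 had a signal of 155 in TTX and 120 in control (0.37), while its other probe, printed 10 times and sharing 42 bases with the first, was not above background at any spot. Fgfr1 had 13256 in TTX and 12238 in control (0.12), with 0.35 and 0.06 at its other probes, and the sign of its brightest probe changed under 1 or more scalings. Fgfr4 was close to background with 28.4 in TTX and 28.6 in control (-0.01), and its other probe was not well above background on either array. Fgfr3, outside the chosen names, had 969 in TTX and 724 in control (0.42), and 0.36 at its other probe.

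Among the IGFs, their receptors and binding proteins, Igfbp5 and Igf2r passed 1.5-fold, both higher in TTX, and the other 6 measured genes did not. With spike-in scaling neither Igfbp5 nor Igf2r passed it. Igf2r, the mannose 6-phosphate receptor that clears IGF2 and sorts lysosomal enzymes, had 1353 in TTX and 834 in control (0.70, error 0.20). Igf1r, the signalling kinase, had 883 in TTX and 888 in control (-0.01). The ligand Igf1 had 491 in TTX and 514 in control (-0.07) at the brightest of its 5 probes, and the 5 ranged from -0.07 to 0.38 and did not share 1 sign.

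Of the 7 IGF-binding proteins, which hold IGFs in the extracellular space and limit or prolong their action, 5 were measured, 4 of them higher and 1 lower in TTX, with a median of 0.30. Igfbp5 had a signal of 4057 in TTX and 2490 in control (0.70), Igfbp3 677 in TTX and 522 in control (0.37), and Igfbp6 177 in TTX and 143 in control (0.30). Igfbp2, the form made by astrocytes and meningeal cells, had 11251 in TTX and 9342 in control (0.27, and 0.21 at its other probe). Igfbp4 stood on the other side with 172 in TTX and 224 in control (-0.38). None of the 5 reached 2-fold. The other probe of Igfbp3 was not well above background on either array.

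**Figure D3:**
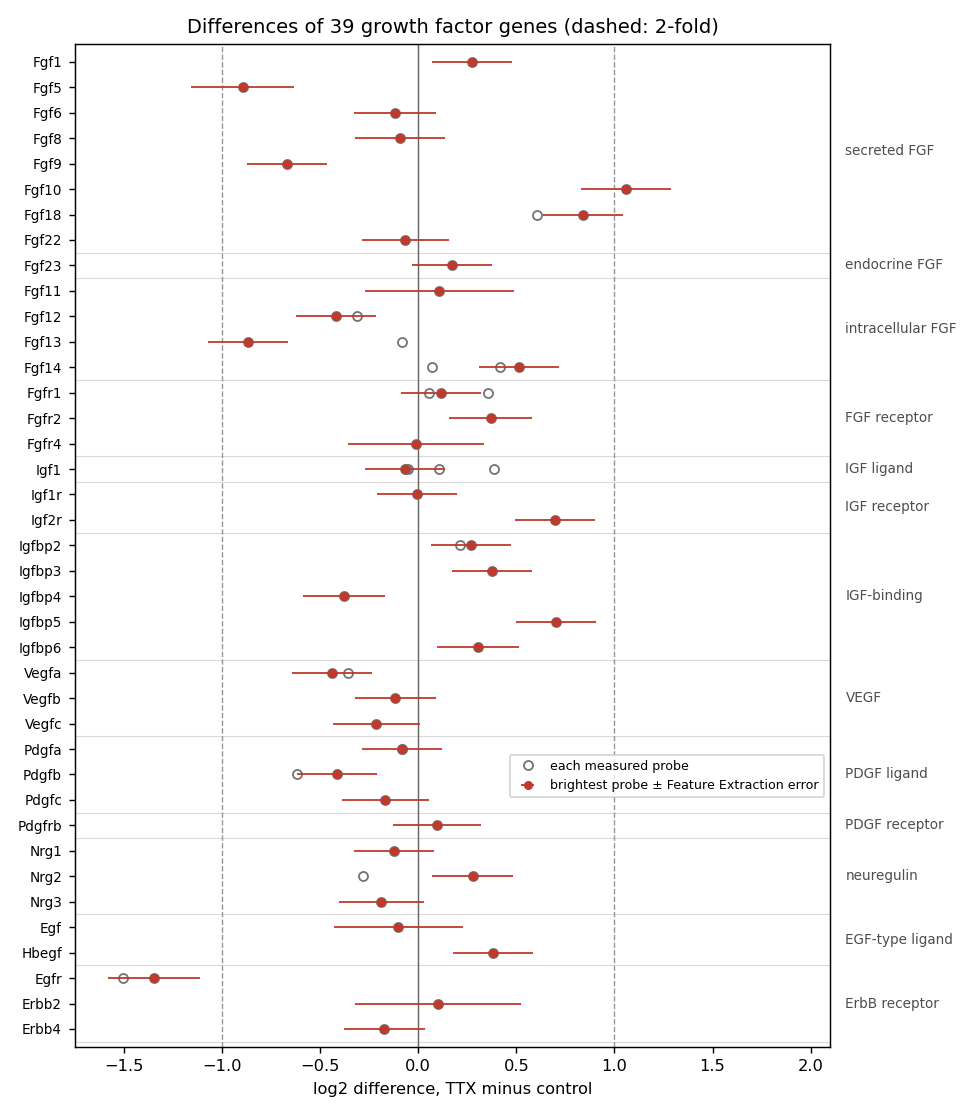
Log2 difference, TTX minus control, of the 39 measured genes in order of their roles, with filled points for the brightest probe, bars for the Feature Extraction error of the difference and open circles for every measured probe. Dashed lines mark 2-fold, which Egfr passes on the lower side at both probes and Fgf10 on the higher side at its only probe.

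Vegfa, Vegfb and Vegfc and all 3 measured PDGF ligands lay below 0 under each of the 6 scalings, by small amounts, while Vegfd, outside the chosen names, had 166 in TTX and 165 in control (0.01). Vegfa, the main signal for vessel growth, had 1346 in TTX and 1825 in control (-0.44), and -0.36 at its other probe. Vegfb had 1341 in TTX and 1453 in control (-0.12), and Vegfc, the lymphatic factor, 84.1 in TTX and 97.5 in control (-0.21). The differences of Vegfb and Vegfc were no larger than their Feature Extraction errors of 0.20 and 0.22.

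Pdgfb, the ligand that recruits pericytes, had a signal of 3742 in TTX and 4980 in control (-0.41), and -0.62 at its other probe. Pdgfa, which drives oligodendrocyte precursors, had 7104 in TTX and 7533 in control (-0.08 at both probes, which share 51 bases), and Pdgfc 88.5 in TTX and 99.5 in control (-0.17). The differences of Pdgfa and Pdgfc were smaller than their Feature Extraction errors of 0.20 and 0.22. The receptor Pdgfrb, a marker of pericytes, had 91.7 in TTX and 85.8 in control (0.10). Of 5 mural cell markers 3 were measured, all above 0, with summed signals of 1271 in TTX and 1009 in control, and Kcnj8 and Abcc9 were not measured. Their part in the Pdgfrb value was not tested.

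In the neuregulin and ErbB branch the EGF receptor was the only measured gene past 1.5-fold. Of its relatives, Erbb3 was not measured and Erbb2 was close to background. Egfr, the receptor of EGF, TGF-alpha and HB-EGF, had a signal of 57.6 in TTX and 146 in control (-1.34, error 0.23). Its second probe had 30.5 in TTX and 86.5 in control (-1.51). A further probe, between the others on mm9, was above background on control alone, with 20.9 in TTX and 32.2 in control. Its own dim TTX signal gave the bound of at least 1.54-fold, in the same direction, with a Feature Extraction error of 0.41 log2.

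Erbb4, the neuregulin receptor of interneurons, had 1128 in TTX and 1271 in control (-0.17). The other Erbb4 probe was not well above background on either array. Erbb2, the co-receptor with no ligand of its own, had 22.8 in TTX and 21.2 in control (0.10), close to background. Nrg1 had 1007 in TTX and 1096 in control (-0.12) and Nrg3 104 in TTX and 119 in control (-0.19), both within their errors. Nrg2 had 231 in TTX and 191 in control (0.28) at its brighter probe, and 22.9 in TTX and 27.8 in control (-0.28) at its dimmer one, so it has no settled direction. Nrg4 was above background on control alone, with 16.3 in TTX and 20.3 in control, at least 1.03-fold lower by the rule for bounds. The Feature Extraction error of this probe was 0.54 log2, and the other Nrg4 probes were not well above background on either array. Nrg4 therefore has no settled direction either.

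Of the ligands of Egfr, Hbegf had 998 in TTX and 766 in control (0.38). Egf itself was dim, with 31.2 in TTX and 33.5 in control (-0.10, error 0.33). The values of Hbegf and Egf therefore lay within 1.5-fold while the receptor was more than 2-fold apart. Areg, Ereg and Btc, counted below among the EGF and ErbB partners, were not above background on either array.

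Egfr is also found in astrocytes and neural progenitors, so the markers of these cells belong beside it. Of the 8 measured astrocyte markers 6 were above 0, with a median of 0.21 and summed signals of 55940 in TTX and 47700 in control. Slc1a2 at -1.05 and Aldh1l1 at -0.14 were the exceptions. Among 5 markers of dividing cells, Mki67 (352 in TTX and 31.6 in control) and Ccna2 (27.1 in TTX and 17.2 in control) were measured. The Ccna2 signals were close to background. Top2a and Cdk1 were above background on neither array, and Ccnb1 was above background on control alone. Aldoc alone gave 44026 of the astrocyte sum in TTX and 38706 in control. The part of these markers in the Egfr value was not tested.

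Probes printed at 10 places on each array show how steady the largest values were within the arrays. For Egfr, the 9 spots free of outlier marks on both arrays ran from 49.0 to 66.1 with a median of 58.9 on TTX, and from 135 to 165 with a median of 146 on control. The ranges did not overlap, and the difference was -1.38 in rows 1 to 192 and -1.36 in rows 193 to 384. Row ranges are given because dim spots leaned higher on TTX in the earlier rows, with 6.0% past 2-fold there and 2.71% in the later rows.

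Fgf10, which was dim, had 9 usable spots from 115 to 140 with a median of 129 on TTX, and from 48.5 to 74.0 with a median of 62.8 on control. Again the ranges did not overlap, and the difference was 1.01 in the earlier rows and 1.08 in the later ones. Both values were thus as large in the later rows as in the earlier ones.

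The smaller differences of Igf2r and Fgf12 were as steady. The 10 Igf2r spots ran from 1281 to 1431 on TTX and from 794 to 895 on control, and the SD of their difference was 0.07. The 10 Fgf12 spots ran from 2453 to 2696 on TTX and from 3337 to 3709 on control, with an SD of 0.04. Egf and Erbb2 showed the opposite picture, since their spots overlapped between the arrays and the difference had SDs of 0.27 and 0.39. Such spread covers printing and scanning only, and not that between cultures or RNA samples.

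**Figure D4:**
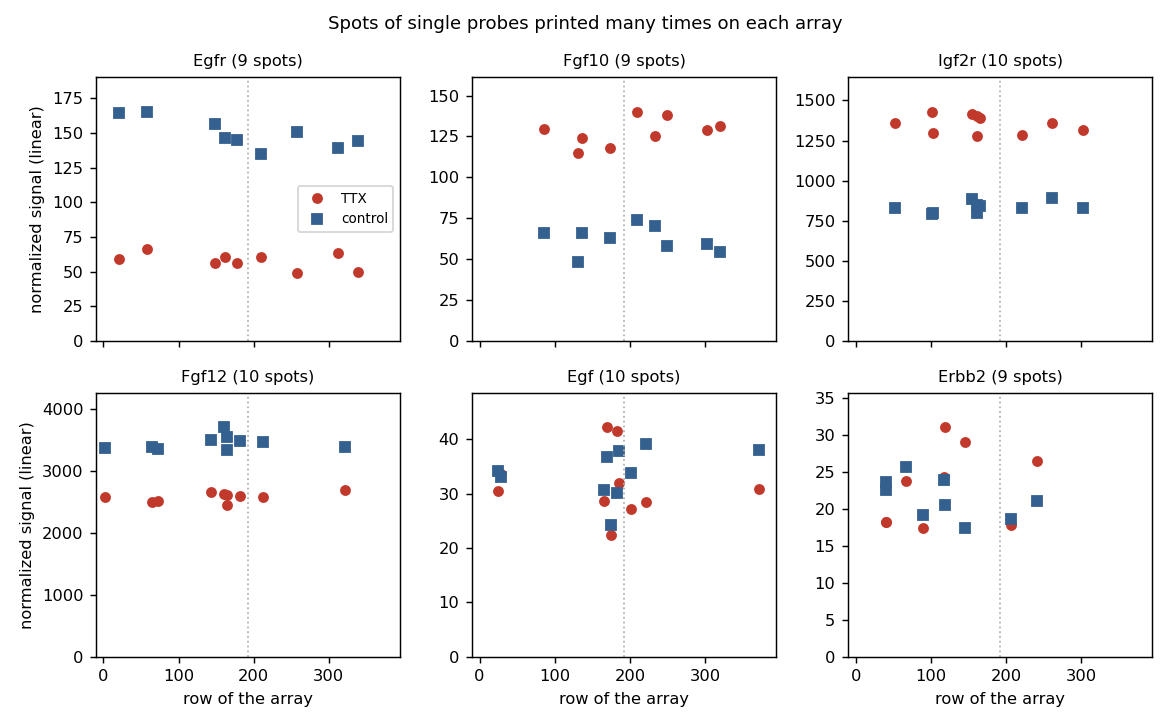
Normalized signal (linear axis from 0) of each usable spot against its row on the array for 6 genes whose probe was printed 10 times, with circles for TTX and squares for control and a dotted line between rows 192 and 193. Egfr and Fgf12 lie lower on TTX at every spot, Fgf10 and Igf2r higher at every spot, and Egf and Erbb2 overlap.

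Among genes that act with the growth factors, most outputs and feedback inhibitors of the ERK cascade were lower in TTX. Of the 14 measured of 17 listed, 11 were below 0, with a median of -0.82, or -0.96 to -0.62 over the scalings. At least 2-fold lower were 6 (42.9%, against 3.40% of all genes), or 5 to 7 over the scalings. This list and the partner lists below were chosen with earlier results of these data known, so such shares are descriptions and not tests. The RAS inhibitor Spred3 had a signal of 23.5 in TTX, close to background, and 138 in control (-2.55). The ETS factor Etv5 had 2305 in TTX and 10385 in control (-2.17) and the ERK phosphatase Dusp4 173 in TTX and 743 in control (-2.10). On the other side Myc (0.67), Spry1 (0.50) and Etv4 (0.39) were above 0, and Spry4, Dusp5 and Fosl1 were not measured.

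Among insulin and IGF partners 16 of 19 were measured, 10 above and 6 below 0, with a median of 0.19. Pappa2, a protease that frees IGFs by cutting IGFBP5 and IGFBP3, had 68.6 in TTX and 422 in control (-2.62), and Stc2, an inhibitor of such proteases, 65.0 in TTX and 136 in control (-1.06). The highest were the PI3K subunit Pik3r1 with 532 in TTX and 226 in control (1.24), the adaptor Grb14 (0.95) and the protease Htra1 (0.83). So 2 of these 16 genes were at least 2-fold lower (12.5%, against 3.40% of all genes), or 1 under some scalings, and 1 was at least 2-fold higher (against 2.08%).

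FGF partners had a median of 0.44 over 8 measured of 12, 5 above and 3 below 0. Il17rd, the FGF signalling inhibitor also called Sef, had a signal of 246.7 in TTX and 112 in control (1.13), and was the only one past 2-fold, which it did not reach under every scaling. The adhesion protein Flrt3 (0.64) and the kinase-free receptor Fgfrl1 (0.50) came next, and Flrt2 (-0.70), Flrt1 (-0.37) and Frs2 (-0.17) were lowest. The members of the FLRT family thus lay on both sides of 0.

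VEGF and PDGF partners had a median of -0.18 over 8 measured of 10, 6 of them below 0 at the brightest probe. Among these, Kdr (-0.24) and Flt1 (-0.12) each had another measured probe above 0 (0.26 and 0.22). The semaphorin receptor Plxnd1 had 614 in TTX and 1250 in control (-1.03, under 2-fold with some scalings), the oxygen sensor's factor Hif1a was at -0.33 and the co-receptor Nrp1 at -0.24. Pdgfrl (0.72) and Nrp2 (0.36) were above 0, Pgf was at -0.08, and the PDGF receptor Pdgfra was not above background on either array. EGF and ErbB partners were the flattest list, with 10 of 15 measured, none past 1.5-fold and a median of 0.18. Tgfa (0.51), Lrig3 (0.49) and Bace1 (0.29), the protease that cuts NRG1, were highest, and the EGFR inhibitor Errfi1 (-0.27), Epgn (-0.20) and Rnf41 (0.01) lowest.

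**Figure D5:**
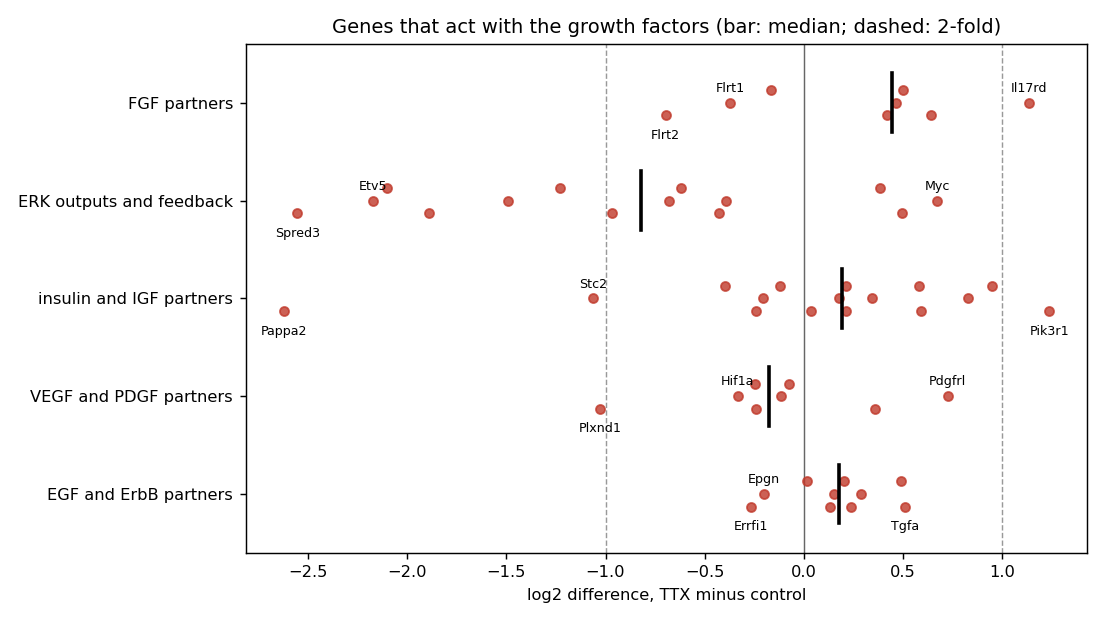
Log2 difference, TTX minus control, of the measured genes in 5 lists of genes that act with the growth factors, 1 point a gene, with a bar at each list's median and dashed lines at 2-fold. The ERK outputs reach -2.55 (Spred3) with a median of -0.82, while the EGF and ErbB partners stay within 0.51 of 0.

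Promoters were read for letters of factors that neuronal activity regulates. RefSeq windows of 300 bases (GRCm38.p6, 250 before to 50 after the start) were found for 43 of the 58 genes, 56 windows in all, and searched on both strands. The short CREB letters TGACG stood in 12 of the 56 windows (21.4%) and in 20.8% of all 32851 windows, and the long CREB letters TGACGTCA, which contain the short ones, in none, against 1.79% of all. The AP-1 letters TGANTCA stood in 4 (7.14%, against 7.81% of all), the NPAS4 letters TCGTG in 9 (16.1%, against 16.04%) and the EGR letters GCGTGGGCG in none (against 0.612%).

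Of the 8 genes past 1.5-fold, Egfr, Fgf10, Fgf5, Fgf18 and Igfbp5 had none of these letters in their windows. Of the 4 Fgf13 windows, 1 held TGANTCA and 1, the same or another, held TCGTG. The windows of Fgf9 (plus strand, chr14:58072436-58072735) and Igf2r (minus strand, chr17:12769657-12769956) are shown because they hold matches, in capitals, 1 TGACG in Fgf9, and 3 TGACG and 1 TCGTG in Igf2r, with TGACG on the other strand written as CGTCA. Fgf9 was lower in TTX and Igf2r higher, and TGACG stood in 20.8% of all windows. The part of these letters in the differences was not tested. A match is a description of the sequence and not a site in use.
Fgf9: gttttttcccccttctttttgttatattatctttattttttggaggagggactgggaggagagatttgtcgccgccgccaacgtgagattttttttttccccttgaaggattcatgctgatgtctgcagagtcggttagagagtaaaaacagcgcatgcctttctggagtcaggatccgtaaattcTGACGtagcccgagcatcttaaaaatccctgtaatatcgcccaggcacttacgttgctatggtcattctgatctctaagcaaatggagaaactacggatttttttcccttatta
Igf2r: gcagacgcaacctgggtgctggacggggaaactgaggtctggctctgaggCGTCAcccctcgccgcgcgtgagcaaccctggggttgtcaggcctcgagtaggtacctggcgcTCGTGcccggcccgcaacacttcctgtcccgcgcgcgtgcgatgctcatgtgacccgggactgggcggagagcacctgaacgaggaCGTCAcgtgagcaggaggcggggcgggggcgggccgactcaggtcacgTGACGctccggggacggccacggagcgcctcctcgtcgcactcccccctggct

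The remaining 18 genes were not well above background on either array, and no fold is given for them. They are Fgf2, Fgf3, Fgf4, Fgf7, Fgf15, Fgf16, Fgf17, Fgf20, Fgf21, Igf2, Igf2as, Igf2bp1, Igf2bp2, Igf2bp3, Igfbp1, Igfbp7, Erbb3 and Pdgfd. Fgf2, the basic FGF of astrocytes, was printed 10 times, and 0 of the 10 spots on TTX and 1 of the 10 on control were well above background. Fgf7, an organizer of inhibitory synapses, had signals of 20.8 in TTX and 8.42 in control, and Igf2 20.5 in TTX and 7.71 in control, none of them well above background. A low signal at 1 probe does not show that a transcript was absent.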

How the data were processed

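The deposited scanner files give 1 linear intensity per spot with background already subtracted, per the file headers. Those headers name Feature Extraction 10.7.1.1, where the submitters' processing notes have 9.5.1.1. The authors' value table holds intensity with equal quartiles on both arrays (median 24.9), quantile normalization being named in the design text. Spots marked as outliers (170 on TTX, 131 on control) were left out after quantile normalization (limma 3.58.1, R 4.3.3), and each probe's remaining spots were averaged as log2. Measured probes had a share of 0.5 or more of their spots well above background on each array, and the brightest of them stood for the gene. For a probe above background on 1 array, the bound used the higher of its own dim signal and the lowest signal well above background (19.6 on TTX, 16.0 on control). A spot was dim up to a control signal of 117.

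Symbols were updated through the RefSeq table of GRCm38.p6 for 30848 of 55681 probes. The 58 genes and the lists were chosen with earlier results of these data known. Every measured gene of the families was named, with the 3 highest and 3 lowest of each partner list, except 1 gene that is not reported here. Alternatives were 75th percentile, spike-in and no scaling, normexp with offset 50, the deposited table, no or a stricter dim filter, the mean over probes, later rows only, and 1.5-fold and 3-fold rules. The promoter motifs were added after the values were seen. The steps were tested on simulated data, in which all changed genes were brighter than Egfr and Fgf10.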

Additional observations from a re-analysis of the deposited data

Results flagged for a closer look

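A second Fgf23 probe, outside the values above because it was not measured on both arrays, was well above background on TTX alone, at least 3.18-fold higher there, with 50.9 in TTX and 14.9 in control. Its single spot lies in row 14, among the rows where dim spots were more often higher on TTX. The part of spot position was not tested.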

How the results depend on the processing

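The counts of genes at least 2-fold lower and higher, 1 (Egfr) and 1 (Fgf10), were the same with 75th percentile scaling, no normalization, the deposited table, the mean over probes and spots of the later rows. Spike-in scaling gave 2 and 1, with Fgf13 added. No filter on dim probes gave 3 and 3, a 1.5-fold rule 4 and 4, and normexp, the stricter filter and a 3-fold rule each gave 0 and 0. Normexp put Egfr at -0.79 and Fgf10 at 0.63, its offset shrinking dim differences by construction, and the stricter filter drops both probes as too dim. The median over the measured genes ranged from -0.08 to 0.05. Of 323 values for single genes 267 moved by less than the spot SD at their brightness and 56 by more, 19 of these with spike-in scaling. None of the values past 2-fold changed sign.

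Among all genes, 476 lower and 291 higher became 301 and 147 with normexp, 1372 and 1058 with no filter, 338 and 168 with the stricter filter, 294 and 145 with later rows alone, 1214 and 1068 at 1.5-fold and 163 and 94 at 3-fold. No paired analysis was possible because each group had 1 array. Spot noise limits dim genes most, with an SD of the difference of 0.27 log2 in the dimmest 20% of signals and 0.06 in the brightest, and 11 of the 39 measured genes were dim on control.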
